A study of Homo sapiens with 8 samples.

Results

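The genes described here are 10 components of the Wnt and beta-catenin pathway, namely DKK1, LRP6, DVL1, AXIN1, AXIN2, APC, GSK3B, CTNNB1, TCF7L1 and TCF7L2. They were chosen by name, and every array probe whose RefSeq accession maps to one of these symbols was taken, which gave 16 of 42405 non-control probes. Gene expression was read on 8 Agilent arrays with a single dye, in KYSE850 cells, which are an established line of human esophageal squamous cell carcinoma (ESCC). 4 arrays held RNA from cells transfected with a control siRNA and 4 held RNA from cells transfected with siRNA against KHSRP, which encodes a KH-domain RNA-binding protein involved in mRNA decay and microRNA maturation. Such small interfering RNAs lead to the loss of the mRNA whose sequence they pair with. Both groups came from the same line, with no further allele or agent in the labels, and one cell line limits what the groups stand for. Several KHSRP siRNAs were used in the study and the arrays are not labelled by siRNA, nor is it stated whether the replicates were separate cultures, so p-values measure only the spread between these samples.

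In the canonical Wnt pathway, secreted Wnt ligands bind a Frizzled receptor together with the co-receptor LRP5 or LRP6. Without a ligand, a destruction complex of AXIN, APC, casein kinase and GSK3B marks beta-catenin for degradation. With a ligand, Dishevelled proteins recruit AXIN to the membrane, beta-catenin accumulates, and in the nucleus it joins TCF/LEF factors at target genes such as AXIN2. Beta-catenin is controlled mainly at the level of the protein, which the arrays did not measure. In squamous epithelium beta-catenin also sits at adherens junctions with E-cadherin.

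Levels are log2 signals minus the 75th percentile of the array they were read on (control probes aside), so a probe at that percentile has the level 0. Groups were compared within a probe, and the levels of different genes are not compared. Between 19145 (45.1%) and 20938 (49.4%) probes per array were well above background, as marked by the scanning software, no spot was saturated, and the number of arrays limits the precision. All 10 squamous epithelium markers were well above background on all 8 arrays, and their summed level (log2 of the summed signal) was 6.75 to 8.38 in the control arrays and 6.74 to 8.65 in the KHSRP siRNA arrays. The 5 endothelial markers and 7 of 8 fibroblast markers were above background on no array (COL1A1 was the exception), while of 6 immune markers CD68 and CD14 were above background on all arrays, PTPRC, CD3E and CD3D on some and ITGAM on none. The summed level of the immune markers was 0.38 to 2.03 in the control arrays and 0.58 to 2.37 in the KHSRP siRNA arrays, and its part in the results was not tested. In bulk RNA, fewer cells that express a gene and less RNA per cell cannot be told apart.

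The targeted gene followed the labels. KHSRP probe A_23_P16157 read 6.03, 5.81, 6.39 and 6.08 in control replicates 1 to 4 and 2.52, 2.58, 2.88 and 2.85 in KHSRP siRNA replicates 1 to 4. The groups did not overlap, and KHSRP mRNA was 10.4-fold lower, a log2 change of -3.37 ± 0.16 (SE, n = 4 per group, limma adjusted p = 5.95e-05, exact permutation p = 0.0286, the smallest that 4 against 4 arrays allow). A second KHSRP probe, A_24_P134235, was above background on all 4 control arrays and on no KHSRP siRNA array. Its log2 difference was -2.67 (limma adjusted p = 0.0147), a size that is not firm because its KHSRP siRNA values lay near background. It entered the test through the control arrays alone, where it is high, so its call is no independent support. With normexp background correction the difference of this probe was -0.58. Its call was lost without control replicate 1 (limma adjusted p = 0.0549) and with a block by scanner file number (0.0724).

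None of the 10 Wnt genes differed between the groups past the threshold, which was an adjusted p under 0.05 from limma with Benjamini-Hochberg adjustment over 18761 tested probes. Over all tested genes 6.19% passed it (2.14% higher and 4.06% lower), and over all tested probes 5.54%. None of the 10 had an unadjusted p under 0.05 either, and the methods' t-test called none, adjusted or unadjusted. The control and KHSRP siRNA arrays overlapped for all 10 genes, whereas 16.2% of all tested genes did not overlap. Of the 10, 5 were higher and 5 lower in the KHSRP siRNA arrays, with a median log2 difference of 0.0015 against 0.0058 over all tested genes. The differences ran from -0.45 for DKK1 to 0.27 for LRP6. Here each gene was represented by its tested probe with the highest mean level.

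Of the 16 probes, 14 were tested, because they were well above background on all 4 arrays of at least 1 group. APC probe A_23_P70213 was above background on no array, and TCF7L2 probe A_23_P127013 on 1 control and 2 KHSRP siRNA arrays. All 14 tested probes were above background on all 8 arrays.

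**Figure D1:**
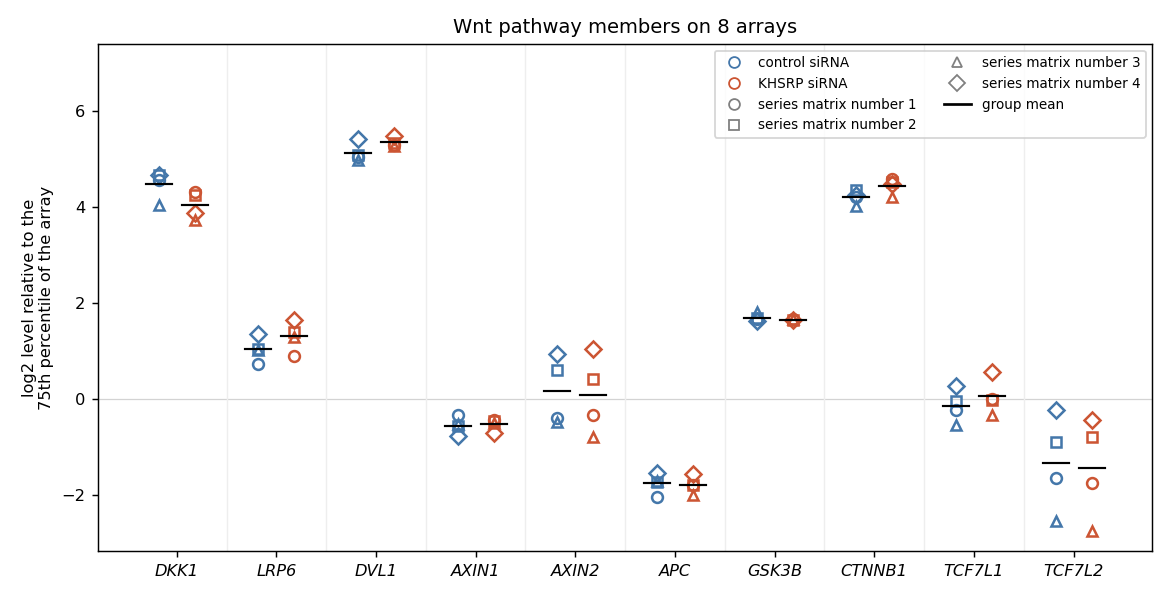
Level of the 10 Wnt genes on each of the 8 arrays, as log2 relative to the 75th percentile of the array, with control siRNA in blue and KHSRP siRNA in red. Marker shapes give the number an array carries in the series matrix, black bars give the group means, and the colours overlap for every gene, widest for AXIN2 and TCF7L2.

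The series matrix numbers the arrays differently from the scanner files. Its columns for KHSRP siRNA arrays 3 and 4 hold the scanner values of KHSRP siRNA replicates 4 and 3. By the matrix numbers, control replicate 3 is paired with KHSRP siRNA replicate 4 and control replicate 4 with KHSRP siRNA replicate 3, while replicates 1 and 2 are paired as in the scanner files. Arrays that share a matrix number deviated from their group means together. To a lesser degree so did arrays numbered 1 and 3, and arrays numbered 2 and 4, so pairs 1 to 1 are not established. The comparison is also given with the matrix number as a block wherever that changes a call. With this block 2 of the 10 genes passed the threshold, DKK1 lower and LRP6 higher, against 33.0% of all tested genes (15.9% higher and 17.1% lower) and 30.1% of all tested probes. The share of the 10 that passed was therefore not above that of all genes. The matrix number was chosen as a block from correlations in these same data. With the scanner file number as a block none of the 10 passed.

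Outside the cell, DKK1 is a secreted inhibitor that binds LRP6 and is itself a known target of beta-catenin and TCF. DKK1 probe A_23_P24129 read 4.57, 4.67, 4.04 and 4.68 in control replicates 1 to 4 and 4.32, 4.25, 3.88 and 3.73 in KHSRP siRNA replicates 1 to 4. Control replicate 3 was low and lay among the KHSRP siRNA arrays, and the other 3 control arrays lay above all of them. The log2 difference was -0.45 ± 0.20 (SE, n = 4 per group), with a 95% interval of -0.90 to 0.0045 (limma adjusted p = 0.260). Paired by matrix number, DKK1 was lower in the KHSRP siRNA array of all 4 pairs, by log2 differences of -0.25, -0.42, -0.31 and -0.80. With that block it passed the test (SE 0.11, limma adjusted p = 0.0300), and with the scanner file number as a block it did not (limma adjusted p = 0.291). The log2 difference was -0.34 within slide 1, which held replicates 1 and 2 of both groups. It was -0.56 within slide 2, which held replicates 3 and 4.

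TCF/LEF factors bind a short DNA motif, and the RefSeq promoters of the 10 genes were searched on both strands for CTTTGAA or CTTTGAT and also for CTTTGTA or CTTTGTT. The window ran from 250 bases before to 50 bases after a start on GRCh38.p14, and 11 promoters of 8 genes were held by the reference (AXIN2 and LRP6 had no entry). A motif was present in 2 of these 11 promoters and in 4829 of 35116 promoters (13.8%) overall. These were the DKK1 promoter and the promoter at the second listed start of TCF7L2, and the 150 bases before each start are shown to place the matches, which are in capitals. They lie 95 and 76 bases before the start of DKK1 and 133 bases before that of TCF7L2. DKK1 is on the plus strand at chr10:52314131-52314280 and TCF7L2 on the plus strand at chr10:113126483-113126632. A match describes the letters only.
DKK1: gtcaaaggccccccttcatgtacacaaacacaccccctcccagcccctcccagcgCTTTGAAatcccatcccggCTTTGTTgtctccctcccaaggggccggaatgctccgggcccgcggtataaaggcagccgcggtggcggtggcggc
TCF7L2: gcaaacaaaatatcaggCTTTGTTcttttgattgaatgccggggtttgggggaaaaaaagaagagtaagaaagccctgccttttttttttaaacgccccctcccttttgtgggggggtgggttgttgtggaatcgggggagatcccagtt

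At the membrane, LRP6 is the co-receptor that takes up the Wnt signal and is the binding partner of DKK1. LRP6 probe A_33_P3306948 read 0.74, 1.04, 1.03 and 1.36 in control replicates 1 to 4 and 0.91, 1.41, 1.65 and 1.29 in KHSRP siRNA replicates 1 to 4. Replicate 1 was the lowest array of either group, and KHSRP siRNA replicates 2 and 3 lay above all controls. The log2 difference was 0.27 ± 0.19 (SE, n = 4 per group), with a 95% interval of -0.16 to 0.71 (limma adjusted p = 0.511). With the matrix number as a block, LRP6 was higher in all 4 pairs, by 0.17, 0.37, 0.26 and 0.30, and passed the test (SE 0.065, limma adjusted p = 0.0290). With the scanner file number as a block it did not pass (limma adjusted p = 0.464). The difference was 0.27 within slide 1 and 0.28 within slide 2. Without the block it was 0.16 when KHSRP siRNA replicate 3 was left out, 0.17 when control replicate 1 was left out and 0.42 with array weights.

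DVL1, 1 of the 3 human Dishevelled proteins that carry the signal from the receptor, had 2 probes. Probe A_23_P201342 read 5.05, 5.08, 4.99 and 5.43 in the control arrays and 5.30, 5.34, 5.48 and 5.28 in the KHSRP siRNA arrays. Control replicate 4 was within the range of the KHSRP siRNA arrays and the other 3 controls were below it, with a log2 difference of 0.21 ± 0.13 (SE, n = 4 per group, 95% interval -0.08 to 0.51, limma adjusted p = 0.429). The second probe, A_23_P347432, differed by 0.29 (limma adjusted p = 0.421), so both DVL1 probes had a positive difference and neither passed the test, with or without the block.

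**Figure D2:**
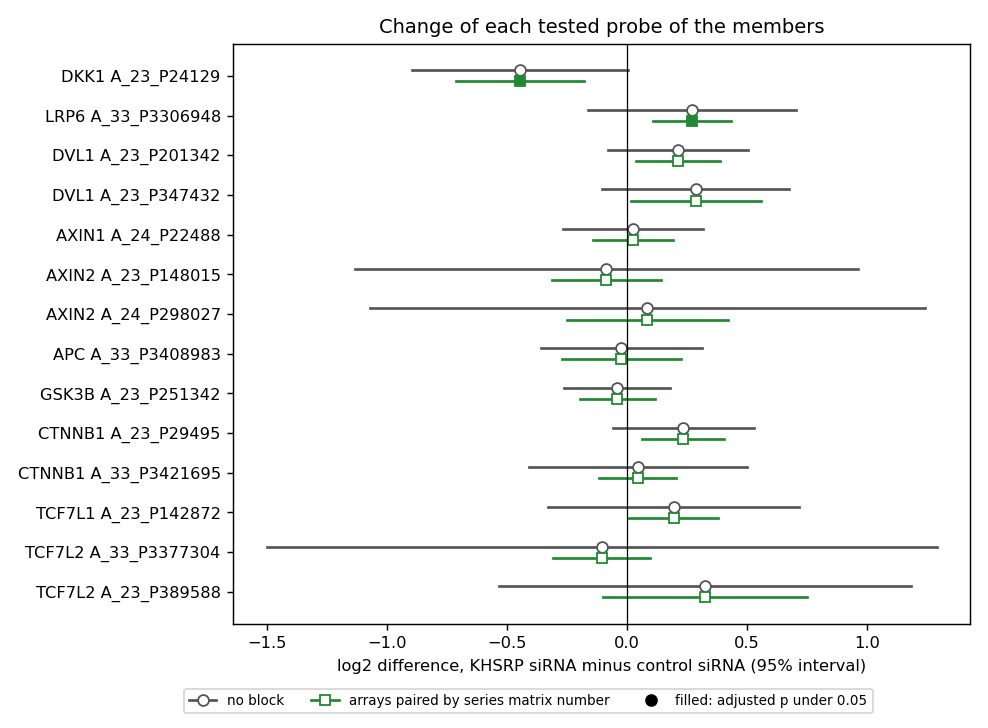
Log2 difference, KHSRP siRNA minus control siRNA, of the 14 tested probes, with 95% intervals, without a block (grey circles) and with arrays paired by series matrix number (green squares). The point estimates are the same in both fits, the intervals are narrower with the pairing for all 14 probes and most so for AXIN2 and TCF7L2 A_33_P3377304, and only DKK1 and LRP6 are filled, at an adjusted p under 0.05.

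In the destruction complex, GSK3B, the kinase that marks beta-catenin for degradation, was the most even of the 10 genes. GSK3B probe A_23_P251342 read 1.68, 1.68, 1.81 and 1.62 in the control arrays and 1.67, 1.65, 1.64 and 1.68 in the KHSRP siRNA arrays. The 8 arrays spanned 1.14-fold, and the spread within groups was at the 0.592th percentile of all tested probes, a probe printed in 10 spots that were averaged. The log2 difference was -0.04 ± 0.10 (SE, n = 4 per group), with a 95% interval of -0.26 to 0.18. That interval is not adjusted for the number of probes and is not the smallest change that the test could call.

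AXIN1, the scaffold of the complex, read -0.34, -0.56, -0.52 and -0.76 in the control arrays and -0.43, -0.45, -0.70 and -0.49 in the KHSRP siRNA arrays (probe A_24_P22488). The KHSRP siRNA arrays all lay inside the range of the controls, and the log2 difference was 0.03 (95% interval -0.27 to 0.32, limma adjusted p = 0.953). APC, a second scaffold of the complex and a tumour suppressor in colon cancer, read -2.04, -1.73, -1.71 and -1.53 in the control arrays and -1.78, -1.79, -1.55 and -1.98 in the KHSRP siRNA arrays (probe A_33_P3408983). Its KHSRP siRNA arrays were also inside the control range, with a log2 difference of -0.02 (95% interval -0.36 to 0.31, limma adjusted p = 0.966). The sign of both differences turned under some other settings, among them normexp background correction, where AXIN1 was -0.0041 and APC 0.027, and scaling to the array median, where AXIN1 was -0.048.

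AXIN2, a scaffold like AXIN1, is a feedback inhibitor and the target gene most often used as a readout of beta-catenin activity. AXIN2 probe A_23_P148015 read -0.38, 0.61, -0.48 and 0.94 in control replicates 1 to 4 and -0.34, 0.42, 1.05 and -0.77 in KHSRP siRNA replicates 1 to 4. Within each group 2 arrays were high and 2 were low, namely control replicates 2 and 4 and KHSRP siRNA replicates 2 and 3 against the rest, and each slide held 2 of the high and 2 of the low arrays. The 8 arrays spanned 3.53-fold, and the spread within groups was at the 94.3rd percentile of all tested probes. The group means were 0.17 ± 0.71 and 0.09 ± 0.81 (SD, n = 4), and the log2 difference of -0.09 had a 95% interval of -1.13 to 0.96 (limma adjusted p = 0.956).

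The second AXIN2 probe, A_24_P298027, read -0.81, 0.23, -0.34 and 1.07 in the control arrays and -0.37, 0.25, 1.29 and -0.68 in the KHSRP siRNA arrays. The same arrays were high on both AXIN2 probes. This probe spanned 4.29-fold, and its log2 difference was 0.09 (limma adjusted p = 0.962), opposite in sign to the first. By matrix number, the AXIN2 pairs of probe A_23_P148015 differed by 0.04, -0.19, -0.30 and 0.11, which narrowed the 95% interval to -0.31 to 0.14 (limma adjusted p = 0.517). AXIN2 thus differed more between the arrays of one group than between the 2 groups.

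CTNNB1 encodes beta-catenin itself. Probe A_23_P29495, printed in 10 spots, read 4.21, 4.36, 4.03 and 4.26 in the control arrays and 4.59, 4.52, 4.49 and 4.20 in the KHSRP siRNA arrays. KHSRP siRNA replicate 4 lay inside the control range and the other 3 lay above it. The log2 difference was 0.23 ± 0.13 (SE, n = 4 per group), with a 95% interval of -0.06 to 0.53 (limma adjusted p = 0.377). Paired by matrix number, CTNNB1 had a positive difference in all 4 pairs, of 0.38, 0.16, 0.17 and 0.23, and did not pass the test (limma adjusted p = 0.0514). The second probe, A_33_P3421695, read 1.19, 1.53, 0.86 and 1.30 in the control arrays and 1.23, 1.55, 1.45 and 0.83 in the KHSRP siRNA arrays. Its groups overlapped over nearly the whole range and its log2 difference was 0.04 (limma adjusted p = 0.946), or -0.029 with scaling to the array median, so the 2 CTNNB1 probes did not give the same size of difference.

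The nuclear factors TCF7L1 and TCF7L2 bind DNA and take up beta-catenin, and TCF7L1 is known mainly as a repressor. TCF7L1 probe A_23_P142872 read -0.23, -0.03, -0.53 and 0.27 in the control arrays and 0.01, -0.01, 0.58 and -0.32 in the KHSRP siRNA arrays. The highest control was replicate 4 and the highest KHSRP siRNA array was replicate 3, which share a matrix number, and the log2 difference was 0.19 (95% interval -0.33 to 0.72, limma adjusted p = 0.741). It was 0.023 without KHSRP siRNA replicate 3, 0.060 without control replicate 3, 0.33 without control replicate 4 and 0.32 without KHSRP siRNA replicate 4.

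TCF7L2 was the most uneven of the 10 genes. Probe A_33_P3377304 read -1.64, -0.89, -2.53 and -0.22 in control replicates 1 to 4 and -1.75, -0.78, -0.43 and -2.75 in KHSRP siRNA replicates 1 to 4. The high arrays were those that were high for AXIN2, the 8 arrays spanned 5.76-fold, and the spread within groups was at the 97.6th percentile of all tested probes. The group means were -1.32 ± 0.99 and -1.43 ± 1.04 (SD, n = 4), with a log2 difference of -0.10 (95% interval -1.5 to 1.29, limma adjusted p = 0.962). The pairs by matrix number differed by -0.11, 0.12, -0.21 and -0.21, and the interval narrowed to -0.31 to 0.10 (limma adjusted p = 0.377). A further TCF7L2 probe, A_23_P389588, read -3.04, -2.19, -2.51 and -1.41 in the control arrays and -2.64, -2.15, -1.47 and -1.60 in the KHSRP siRNA arrays. Here KHSRP siRNA replicate 4 was high rather than low, so the 2 TCF7L2 probes did not follow the same arrays. Its log2 difference was 0.33 (limma adjusted p = 0.733).

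**Figure D3:**
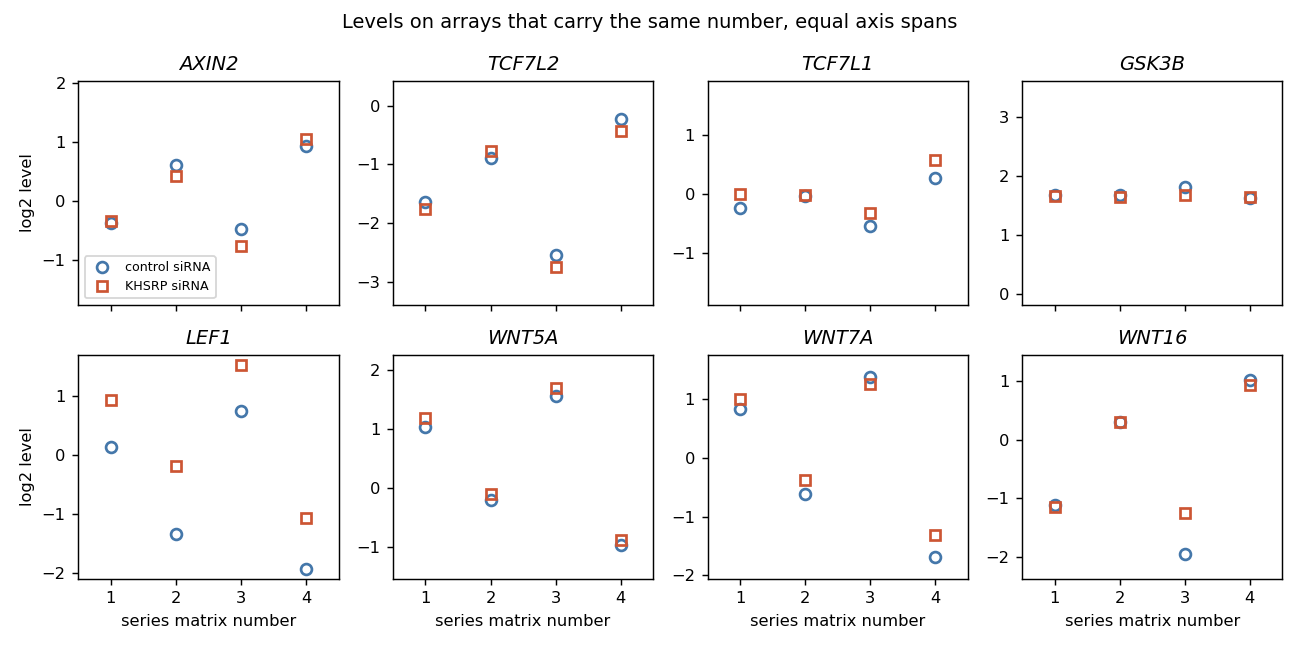
Log2 level of 8 Wnt pathway genes against the number an array carries in the series matrix, for control siRNA (blue circles) and KHSRP siRNA (red squares), with equal spans of the vertical axes. AXIN2, TCF7L2 and WNT16 are high at numbers 2 and 4, WNT5A, WNT7A and LEF1 are high at numbers 1 and 3, GSK3B is level throughout, and the red squares of LEF1 stand 0.77 to 1.17 above the blue circles.

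The other genes of the pathway were listed by role, 122 in all, of which 120 had a probe that mapped to their symbol and 93 were tested. No probe mapped to CSNK1A1 or CSNK1E by RefSeq accession. Of the 93, 6 passed the test, 4 higher and 2 lower (6.45%, near the 6.19% of all genes), and 31 passed it with the matrix number as a block, 21 higher and 10 lower (33.3%, near the 33.0% of all genes). The 6 include NKD1 and FZD3, which entered the test through 1 group alone, and 4 of the genes were called when only probes above background on all 8 arrays were tested. In 15 of the 93 (16.1%) the groups did not overlap, near the 16.2% of all genes. Their median log2 difference was 0.09. A within-group SD over 0.5 was found for 26 of the 93 (28.0%) and for 1966 of 12125 tested genes (16.2%).

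In the signal relay 3 of 11 tested genes passed the test (27.3%, against 6.19% of all tested genes). All 3 were higher, where 2.14% of all tested genes were called higher. They include NKD1, which entered the test through the KHSRP siRNA arrays alone. With the block 7 of 11 passed (63.6%, against 33.0% of all genes), 5 higher and 2 lower. Whether these shares differ was not tested. The 2 lower ones were DACT3, a Dishevelled-binding protein, at -1.14 (limma adjusted p = 0.0671, or 0.0046 with the block), and CSNK1D, a casein kinase, at -0.46 (limma adjusted p = 0.0940, or 0.0076 with the block), both with groups that did not overlap and both named after their values were seen. DVL3, a Dishevelled paralog of DVL1, was 0.10, -0.03, 0.17 and -0.05 in the control arrays and 1.02, 0.87, 0.77 and 1.13 in the KHSRP siRNA arrays. The groups were clear of each other, and DVL3 rose by 0.90 ± 0.12 on the log2 scale (SE, n = 4 per group, limma adjusted p = 0.0049). NKD2, a Dishevelled-binding antagonist of the pathway, rose by 1.09 ± 0.16 (limma adjusted p = 0.0069), from 1.95 to 2.52 in the control arrays to 3.05 to 3.37 in the KHSRP siRNA arrays. For its paralog NKD1, also a Wnt target gene, the log2 difference was 1.0 ± 0.21 (limma adjusted p = 0.0317), but NKD1 was above background on 1 control array only and entered the test through the KHSRP siRNA arrays, so neither the size nor the call is firm. Both DVL3 and NKD2 passed the test whichever single array was left out, and NKD1 only with control replicate 4 left out. With the scanner file number as a block neither DVL3 (limma adjusted p = 0.0690) nor NKD2 (limma adjusted p = 0.0575) passed. NKD1 was 0.20 with normexp background correction and was not called there, without a filter on dim probes (limma adjusted p = 0.113), with median scaling or by the methods' t-test.

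Of 17 tested receptors and their regulators, 2 passed the test (11.8%, against 6.19% of all tested genes, and whether these differ was not tested). ZNRF3, a ubiquitin ligase that removes Frizzled from the membrane and a Wnt target gene, was 2.29 to 2.47 in the control arrays and 2.75 to 2.99 in the KHSRP siRNA arrays and rose by 0.54 ± 0.11 (limma adjusted p = 0.0237). With 1 array left out it passed only without KHSRP siRNA replicate 4, and with scaling to the array median it was 0.46 (limma adjusted p = 0.258). ZNRF3 also did not pass without a filter on dim probes (limma adjusted p = 0.163) or with the scanner file number as a block (0.112). The second ZNRF3 probe, A_23_P427502, was at 0.48 (limma adjusted p = 0.128). For FZD3, a Frizzled receptor, the log2 difference was -1.36 ± 0.32 (limma adjusted p = 0.0454), but FZD3 was above background on 4 control arrays and 1 KHSRP siRNA array and entered the test through the control arrays, so neither the size nor the call is firm. With 1 array left out it passed only without KHSRP siRNA replicate 2 or 3, with normexp background correction it was -0.22 and not called, and it was not called without a filter on dim probes (limma adjusted p = 0.139) or with the slide as a block (0.0502).

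Among 20 tested target genes, 3 passed the test (15%, against 6.19% of all tested genes, and whether these differ was not tested). Of the 3, NKD1, with the limit given there, and ZNRF3 are described above and were already counted there. The third was BIRC5, the apoptosis inhibitor survivin, which was 6.34, 6.42, 6.46 and 6.26 in the control arrays and 5.58, 5.62, 5.78 and 5.70 in the KHSRP siRNA arrays. The groups did not overlap, and BIRC5 fell by 0.70 ± 0.10 on the log2 scale (limma adjusted p = 0.0080). It passed the test whichever single array was left out. It did not pass without a filter on dim probes (limma adjusted p = 0.0689) or with the scanner file number as a block (limma adjusted p = 0.0708). BIRC5 is also a gene of dividing cells. With the block 10 of the 20 targets passed the test, 8 higher and 2 lower, where 33.0% of all genes passed (15.9% higher and 17.1% lower), and whether the share differs was not tested. Among them, chosen after their values were seen, were MYC, CCND1 and ID2, none of which passed without the block. MYC, the growth-promoting transcription factor, was at 0.56 (limma adjusted p = 0.0728 without the block). CCND1, which encodes cyclin D1, was at 0.35 (limma adjusted p = 0.386 without the block). ID2, an inhibitor of helix-loop-helix factors, was at -1.57 (limma adjusted p = 0.146 without the block), and its 8 arrays spanned 10.8-fold. The groups overlapped for CCND1 and ID2 and not for MYC. AXIN2 did not pass with the block.

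In the remaining roles no gene passed the test without the block, and the gene of largest difference is given for each. Of 13 tested ligands this was WNT6, at -0.58 (limma adjusted p = 0.202, or 0.0049 with the block). Of 5 genes listed with the secreted inhibitors it was KREMEN1, a membrane receptor of DKK1, at 0.42 (limma adjusted p = 0.0592, or 0.0092 with the block). Its groups did not overlap, whereas a second KREMEN1 probe, A_23_P211401, was at 0.22 with overlapping groups (limma adjusted p = 0.489, or 0.185 with the block). Of 10 destruction complex genes it was AMER1, a membrane anchor of the complex, at 0.56 (limma adjusted p = 0.324, or 0.0072 with the block), and the median difference of those 10 was -0.06. Of 6 adherens junction partners of beta-catenin it was CDH1, which encodes E-cadherin, at 0.55 (limma adjusted p = 0.135, or 0.0116 with the block), again with groups that did not overlap. With the block 33.0% of all tested genes passed. With the scanner file number as a block none of these genes passed. The limma adjusted p was then 0.410 for WNT6, 0.189 for KREMEN1 (A_23_P68851), 0.383 for AMER1 and 0.169 for CDH1.

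Of 16 tested nuclear effectors the largest difference was that of LEF1, a TCF/LEF factor like TCF7L2. LEF1 read 0.13, -1.35, 0.75 and -1.93 in control replicates 1 to 4 and 0.93, -0.18, -1.07 and 1.52 in KHSRP siRNA replicates 1 to 4. Its high arrays were the low arrays of AXIN2 and TCF7L2 probe A_33_P3377304, and the 8 arrays spanned 10.9-fold. The log2 difference was 0.90 ± 0.72 (SE, n = 4 per group, limma adjusted p = 0.582), and it was 0.46 without control replicate 4, 0.49 without KHSRP siRNA replicate 4, 1.36 without KHSRP siRNA replicate 3, 0.54 with normexp and 0.36 with array weights. With the matrix number as a block LEF1 was higher in all 4 pairs, by 0.80, 1.17, 0.77 and 0.86, and passed the test (SE 0.089, limma adjusted p = 0.0029). With the scanner file number as a block it did not pass (limma adjusted p = 0.687).

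Several ligands, chosen after their values were seen, had the same kind of spread between arrays. WNT5A, a ligand best known for signalling without beta-catenin, read 1.03, -0.20, 1.56 and -0.98 in the control arrays and 1.18, -0.10, -0.88 and 1.69 in the KHSRP siRNA arrays. WNT7A read 0.83, -0.61, 1.38 and -1.69 in the control arrays and 1.0, -0.38, -1.31 and 1.25 in the KHSRP siRNA arrays. Both were high on the arrays where LEF1 was high. WNT16 read -1.11, 0.30, -1.94 and 1.01 in the control arrays and -1.15, 0.31, 0.94 and -1.25 in the KHSRP siRNA arrays, and was high where AXIN2 was high. The log2 differences between the groups were 0.12 for WNT5A, 0.17 for WNT7A and 0.15 for WNT16, and none of the 3 passed the test with or without the block. The levels of KHSRP probe A_23_P16157 did not separate by this division within either group. Paired by matrix number, that probe differed by -3.52 and -3.54 at numbers 1 and 3, and by -3.23 and -3.21 at numbers 2 and 4. On KHSRP probe A_24_P134235 control replicates 1 and 3 read -0.95 and -1.04, and control replicates 2 and 4 read -1.86 and -1.10. Whether KHSRP mRNA is linked to this division was not tested.

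**Figure D4:**
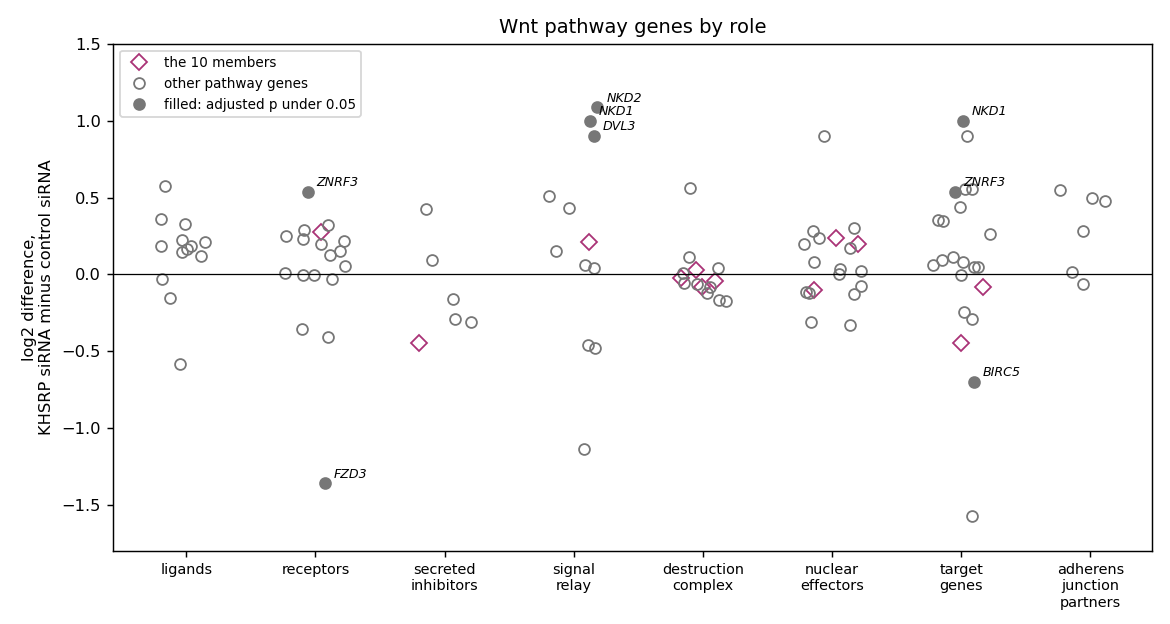
Log2 difference, KHSRP siRNA minus control siRNA, of each tested Wnt pathway gene by role (a gene with 2 roles is drawn in both), with the 10 genes as diamonds and the others as circles. Filled symbols mark an adjusted p under 0.05 without a block, which none of the 10 reached, and DVL3, NKD1 and NKD2 in the signal relay, ZNRF3 and FZD3 among the receptors and BIRC5 among the targets did.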

How the data were processed

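The authors scanned the arrays and deposited linear fluorescence intensity values per spot. Per the file headers, Feature Extraction 11.5.1.1 had background-subtracted and detrended the processed signal (the labels name version 12.6). The authors also deposited a series matrix on the log2 scale (GeneSpring, per the methods), which matched the scanner signal at the 75th percentile scaling and served as an alternative. The scanner files also hold marks for outlier, saturated and above-background spots. The labels and the methods name different RNA kits.

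Control and outlier spots were left out, and log2 intensity was averaged per probe and set relative to the 75th percentile of the 42405 non-control probes of each array. Probes were named through RefSeq accessions (GRCh38.p14), which gave a symbol to 27241. A probe was tested if a share of 0.5 or more of its spots was marked well above background on all 4 arrays of a group. limma 3.58.1 (R 4.3.3), without a block and two-sided, with p-values adjusted by Benjamini-Hochberg, was fitted on all 18761 tested probes and checked on simulated data. Python 3.11.15 was used elsewhere.

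Deviations from the group means correlated across all tested probes at 0.52, 0.43, 0.83 and 0.84 in the 4 pairs of equal series matrix number, all above 0.1, so these numbers were taken to pair the arrays, as a feature of the data and not of the labels. By scanner file number the values were 0.52, 0.43, -0.67 and -0.64. Some control and KHSRP siRNA replicates that share neither number also correlated. The values were 0.41 for control 1 with KHSRP siRNA 4, 0.42 for 2 with 3, 0.38 for 4 with 2 and 0.38 for 3 with 1. The value of 2 with 3 was only slightly below the 0.43 of 2 with 2, so pairs 1 to 1 are not established.

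Named are KHSRP, all 10 genes, and of the pathway list the called genes (at most 5 a role) or, where a role has none, the gene of largest difference. The members, lists, named-gene rule and pairing were chosen with earlier results of these data known. A further listed cell type marker is not reported here. Alternatives covered scaling, background correction (normexp, offset 50, on median spot brightness), dim-probe filters, slides, pairing, weights, variance, the methods' t-test and leaving out arrays.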

Additional observations from a re-analysis of the deposited data

Results flagged for a closer look

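Among 54 groups of 4 values checked, 2 held an array far from the other 3, and chance alone sets about 1 in 20 groups apart. KHSRP probe A_24_P134235 read -1.86 in control siRNA replicate 2 against -1.10 in the nearest control array, a gap of 0.832 of the whole range. NKD1 probe A_23_P429449 read -2.50 in control siRNA replicate 4 against -3.34 in the nearest control array, a gap of 0.870 of the range, and this was the control array on which NKD1 was well above background.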

How the results depend on the processing

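Of 25 alternatives, 24 left the count of called Wnt genes at 0, and the replicate block by series matrix number gave 2, as it did for the Wnt probes. KHSRP stayed between -3.46 and -3.22 and was called in all but the fits within 1 slide (-3.37 in both), in which no probe was called. All tested probes gave 1039 calls, of which 34.6% were higher, against 570 with median scaling (17.2% higher, with a median difference of -0.06 over all probes), 319 without a filter on dim probes, 0 within slide 1 and 0 within slide 2 (2112 and 1022 probes at an unadjusted p under 0.05 by limma), 1699 with array weights, and 489 to 766 with 1 array left out. The replicate block gave 156 calls by scanner file number and 5644 by series matrix number. The methods' t-test called 1081 after adjustment and 3710 before it. For the other pathway genes 6 calls became 2 without a filter, 0 within slide 1 and 0 within slide 2, 10 with array weights, 3 to 4 with 1 array left out, and 0 and 31 under the replicate block by scanner and by matrix number. The causes were not tested. Signs turned for 6 probes that no alternative called. AXIN1 was -0.048 with median scaling, -0.0041 with normexp, -0.064 with array weights and -0.047 to 0.10 with 1 array left out. AXIN2 A_23_P148015 was 0.30 with array weights and -0.40 to 0.20 with 1 array left out, and A_24_P298027 was -0.059 within slide 2 and -0.30 to 0.43. APC was 0.027 with normexp, 0.10 within slide 1, 0.13 with array weights and -0.12 to 0.052. CTNNB1 A_33_P3421695 was -0.029 with median scaling and -0.075 to 0.19. TCF7L2 A_33_P3377304 was 0.0037 within slide 1, 0.29 with array weights and -0.51 to 0.34. Of probes that kept their sign, LRP6 ran from 0.16 to 0.41, TCF7L1 from 0.023 to 0.33, TCF7L2 A_23_P389588 from 0.074 to 0.62 and DVL1 A_23_P347432 from 0.17 to 0.38 with 1 array left out. Levels of NKD1 and FZD3 lay close to background in 1 group, where small differences cannot be measured. The tested probes of APC and TCF7L2 were above background on all 8 arrays but dim, which also limits the measurement of small differences.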
